A study of Mus musculus with 6 samples.

Results

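Immediate early genes were followed in basal cells sorted from mouse mammary glands with and without vimentin, an intermediate filament protein. They were taken as a named list of 34 genes out of the 23337 genes counted: 7 AP-1 genes (Fos, Fosb, Fosl1, Fosl2, Jun, Junb and Jund), 3 EGR genes (Egr1, Egr2 and Egr3), 3 NR4A genes (Nr4a1, Nr4a2 and Nr4a3), 4 KLF genes (Klf2, Klf4, Klf6 and Klf10) and 17 others. All 34 genes were found in the files and all 34 passed the filter on low counts. The cells came from collagenase-digested glands of 15-week-old mice of a mixed 129/Sv X C57BL/6 strain and were gated in a cell sorter as live, negative for CD45 and CD31, low for CD24 and high for CD49f. There were 2 wild-type libraries (Vimwt/wt) and 4 knockout libraries (Vimtm1Cba/tm1Cba), each from a pool of 2 to 3 mice. The labels name 2 independent experiments, and the deposited file names carry 2 day codes: wild type 1, knockout 1 and knockout 2 share day code 1, and wild type 2, knockout 3 and knockout 4 share day code 2.

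Immediate early genes are transcribed within minutes of a stimulus from factors that are already present in the cell, so that no new protein is needed. Growth factors, calcium, cyclic AMP, stretch and the digestion of a tissue into single cells are known to raise them, through ERK and p38 kinases, serum response factor with its ELK partners, and the cyclic AMP response element binding protein CREB. Many encode transcription factors, such as the FOS and JUN proteins that pair into the AP-1 complex, and others encode phosphatases and RNA-binding proteins that end the response.

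Total counts per library ran from 25347967 to 31200622. Pearson correlations of log2 CPM (a gene's share of the library's counts, scaled by edgeR's TMM factors) ran from 0.97 to 0.989 between libraries, across genes. Vim, the targeted gene, had 7055 counts in wild type 1, 6256 in wild type 2 and 2645 to 3318 in the knockout libraries, where it was lower in 4 of 4 (log2 fold change -1.12, edgeR adjusted p = 0.019). The 13 basal markers summed to 22601 and 23065 CPM in wild type, 23702 and 21418 CPM in knockout 1 and 2 and 19800 and 20101 CPM in knockout 3 and 4; within day code 2, 10 of 13 had log2 fold changes below 0 (median -0.17). Ptprc, which encodes CD45, was at 0 to 15 counts. Wild type 1 stood apart in endothelial genes: it was the highest library for 16 of 16 endothelial markers, whose summed level was 219 CPM there, 85.1 CPM in wild type 2 and 57.1 to 73.5 CPM in the knockout libraries. Leukocyte markers summed to 27.2 and 29.7 CPM in wild type and 19.5 to 33.2 CPM in knockout (wild type 1 was highest for 10 of 14), and fibroblast markers to 150 and 171 CPM and 119 to 163 CPM. Luminal markers summed to 1637 and 1816 CPM in wild type and 1674 to 1951 CPM in knockout. Wild type 2 was the lowest library for 7 of 14 of them, and within day code 2 11 of 14 were above 0 (median 0.42), 6 of them at an unadjusted p under 0.05. Their difference between day codes was above 0 in 12 of 14, 6 of them at an unadjusted p under 0.05. Pericyte markers were at 57.1 CPM in wild type 1, the highest library for 5 of 8, and at 33.8 to 46.1 CPM elsewhere. Cd3e was at 0 counts in 5 of 6 libraries. Bulk RNA cannot tell fewer cells of a type from less RNA per cell. The part of transcripts from these other cell types in the results below was not tested.

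Promoter windows from RefSeq (GRCm38.p6, the assembly of mm10), 250 bases before to 50 after a start site, were available for 27 of the 34 genes. The NR4A promoters are shown because the 3 NR4A genes had the highest median difference between genotypes of the 7 classes, and the Fos promoter because Fos had the highest level. Each line gives the 250 bases before the start site, 5′ to 3′ on the strand of the gene, with every match to TGACG (the core of the cyclic AMP response element, read on both strands, so that CGTCA marks a match on the other strand) in capitals.
Nr4a1, chr15:101266596-101266845, plus strand: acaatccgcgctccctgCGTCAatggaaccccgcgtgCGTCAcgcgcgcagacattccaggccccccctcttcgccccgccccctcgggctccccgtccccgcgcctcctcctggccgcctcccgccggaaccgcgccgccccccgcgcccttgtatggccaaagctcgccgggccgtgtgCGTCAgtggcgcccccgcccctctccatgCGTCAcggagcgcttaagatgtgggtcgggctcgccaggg
Nr4a2, chr2:57124004-57124253, minus strand: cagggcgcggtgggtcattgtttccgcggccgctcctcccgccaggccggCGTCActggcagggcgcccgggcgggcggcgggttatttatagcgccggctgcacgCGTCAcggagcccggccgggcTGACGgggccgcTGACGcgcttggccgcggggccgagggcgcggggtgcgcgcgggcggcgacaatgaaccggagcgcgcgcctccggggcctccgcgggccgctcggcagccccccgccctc
Nr4a3, chr4:48045055-48045304, plus strand: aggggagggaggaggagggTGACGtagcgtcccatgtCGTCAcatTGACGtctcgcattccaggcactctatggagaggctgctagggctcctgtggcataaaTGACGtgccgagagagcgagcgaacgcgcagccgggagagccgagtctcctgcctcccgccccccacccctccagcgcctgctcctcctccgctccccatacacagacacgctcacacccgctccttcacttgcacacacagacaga
Fos, chr12:85473640-85473889, plus strand: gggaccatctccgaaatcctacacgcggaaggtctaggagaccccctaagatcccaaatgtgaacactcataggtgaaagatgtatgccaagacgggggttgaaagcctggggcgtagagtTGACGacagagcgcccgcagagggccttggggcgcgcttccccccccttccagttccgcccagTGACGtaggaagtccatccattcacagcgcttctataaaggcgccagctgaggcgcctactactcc
The NR4A promoters held 4 matches each and the Fos promoter held 2. The window of Nr4a3 lies 5943 bases from the gene end used for counting, which belongs to another transcript start. Over the 27 windows, 18 (66.7%) held TGACG, beside 20.8% of all 32851 windows of that length. The full element TGACGTCA, which contains TGACG on both strands, was in 4 of 27 windows (14.8%) and in 1.79% of all. A CArG box, the site of serum response factor, was in 3 windows (Egr2, Srf and Zfp36; 11.1%) and in 1.63% of all. The EGR site GCGGGGGCG was in 8 windows (29.6%) and in 2.91% of all. The AP-1 site TGAGTCA was in 0 of the 27 windows and in 5.2% of all. The share of all windows with 4 matches to TGACG was not counted. These matches describe the letters of these windows, and whether they go with the difference between genotypes was not tested.

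The immediate early genes made up 2.24% to 2.94% of all counts in each library. On the scale of CPM per kilobase of exon (RPKM), which allows genes to be set side by side, Fos was the 7th highest of 23337 genes with a mean level of 1654 RPKM, and Fosb was the 23rd with 899 RPKM. Of the 34 genes, 9 were among the 100 highest genes and 22 among the 500 highest. After Fos and Fosb these 9 were Zfp36 (606 RPKM), Dusp1 (584), Junb (537), Ier3 (497), Jun (491), Egr1 (468) and Sik1 (382). The lowest levels were those of Egr3 (29.4 RPKM), Klf2 (8.03) and Dusp2 (5.32). Ranges over the 6 libraries did not separate most neighbours in this order: Jun spanned 401 to 591 RPKM and Egr1 341 to 641 RPKM.

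**Figure D1:**
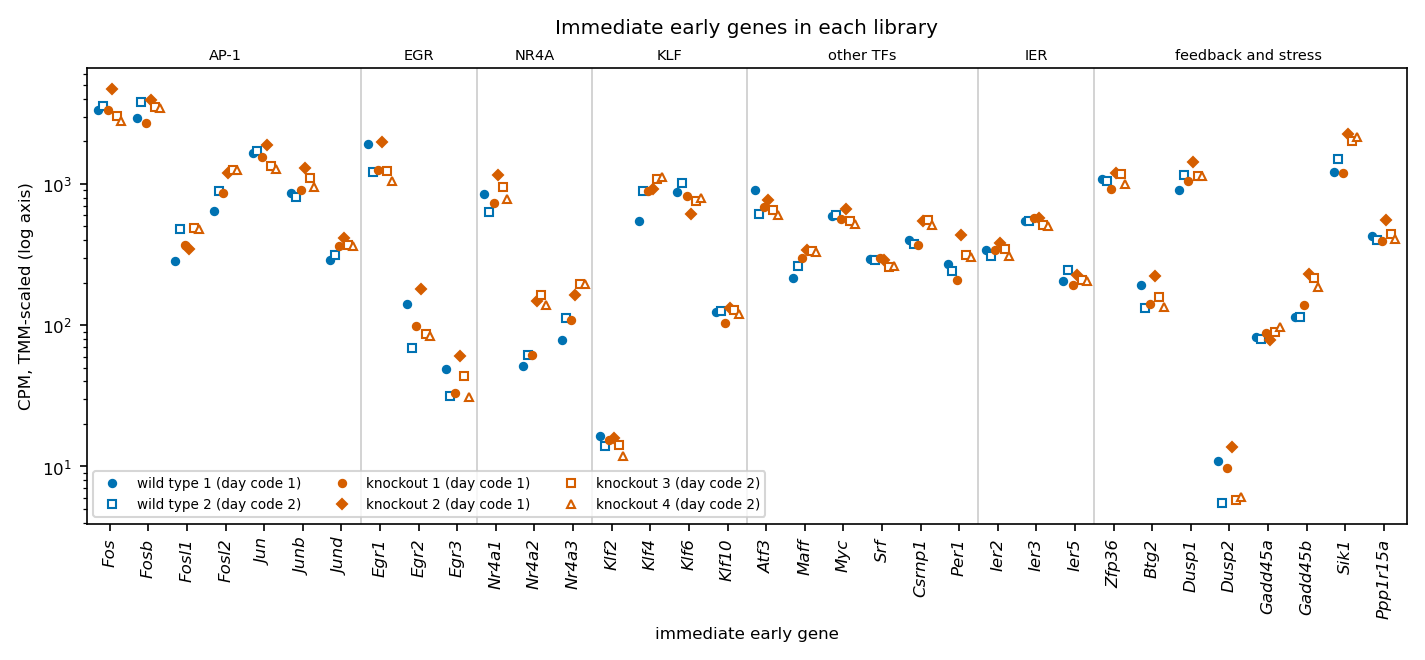
Level of each of the 34 immediate early genes in each library, in TMM-scaled CPM on a log axis, 1 point per library, with wild type in blue and knockout in orange and the classes set apart by vertical lines. Nr4a2 is at 51.7 and 61.6 CPM in wild type and at 61.9 to 164 CPM in knockout, while the genotypes overlap for Fos, Jun and Egr1.

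The main comparison asked whether these genes differ between knockout and wild type over all 6 libraries. By edgeR's quasi-likelihood test with genotype alone, 0 of the 34 genes passed an adjusted p of 0.05, where 0.079% of the 13925 tested genes did. Before adjustment 7 of the 34 genes (20.6%) had a p under 0.05 and were higher in knockout, beside 4.48% of all tested genes, and 0 were lower, beside 4.09%. Of the 34 genes, 24 (70.6%) had a log2 fold change above 0, beside 47.6% of all, and their median was 0.10, beside -0.01. In 6 genes (17.6%) all knockout libraries lay above both wild-type libraries, beside 7.6% of all tested genes, and these were Junb, Jund, Nr4a2, Klf4, Maff and Gadd45b. Klf6 alone lay below both (2.94%, beside 8.57%). DESeq2 called 2 of the 34, Nr4a2 and Gadd45b, where it called 1.88% of all tested genes, and limma-voom called 0. With the day code as a replicate block, edgeR called 1, Nr4a3, where 1.56% of all tested genes were called and 1.12% were called higher. Without knockout 2 the median over the 34 genes was -0.01, with 17 above 0 and 6 higher at an unadjusted p under 0.05, beside 4.27% of all tested genes. Without wild type 1 that count was 2, beside 5.43%, and without knockout 1 it was 11, beside 6.18%. The blocked fit called 13 of the 34 genes without knockout 1 (6.84% of all tested genes), 2 without knockout 2 (1.79%) and 0 without any other library.

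The AP-1 genes had 6 of 7 log2 fold changes above 0 with a median of 0.13, and 0 passed the test. With the replicate block 5 of 7 were above 0. By genotype alone without knockout 2, Fos was at -0.17, while Fosl1, Fosl2 and Jund stayed above 0 (0.23, 0.57 and 0.29). Fos, which cannot bind DNA without a JUN partner, was at 3336 and 3587 CPM in wild type 1 and 2 and at 3321, 4732, 3023 and 2784 CPM in knockout 1 to 4. Knockout 2 was the highest library and knockout 4 the lowest, so that the genotypes overlapped. The means were 3461 ± 178 CPM (SD, n = 2) and 3465 ± 873 CPM (SD, n = 4), and the fitted log2 difference was 0.00 (SE 0.22). Jun, the main partner of Fos, was at 1647 and 1711 CPM in wild type and 1543, 1883, 1332 and 1278 CPM in knockout. Its groups overlapped too (log2 fold change -0.15, SE 0.18, edgeR adjusted p = 0.932). Fosl2, which encodes the AP-1 subunit FRA2, was at 643 and 886 CPM in wild type and at 866, 1200, 1256 and 1255 CPM in knockout. Knockout 1 lay just under wild type 2, and the other knockout libraries lay above both wild-type libraries. The log2 fold change of Fosl2 was 0.58 (SE 0.20, edgeR adjusted p = 0.452, or 0.0745 with the replicate block).

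Jund, the JUN family member that many resting cells already contain, was at 289 and 314 CPM in wild type and 364, 414, 368 and 361 CPM in knockout. Its 4 knockout libraries lay above both wild-type libraries, with a log2 difference of 0.32 (SE 0.12, edgeR adjusted p = 0.488). Junb was at 869 and 810 CPM in wild type and at 902, 1303, 1100 and 950 CPM in knockout, again without overlap (0.34, SE 0.17, edgeR adjusted p = 0.664). Fosl1, which encodes FRA1, was at 284 and 483 CPM in wild type and at 372, 344, 484 and 476 CPM in knockout. It followed the day code rather than the genotype: the day code 2 libraries were at 476 to 484 CPM and the day code 1 libraries at 284 to 372 CPM. Fosb ran from 2721 to 3939 CPM over the 6 libraries with a log2 fold change of 0.02 between genotypes.

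The EGR genes, zinc finger factors that are classical readouts of ERK signalling, overlapped between genotypes in all 3 cases, and 0 passed the test. Egr1 was at 1914 and 1210 CPM in wild type and at 1256, 1968, 1225 and 1049 CPM in knockout. Wild type 1 and knockout 2, both of day code 1, stood above the other 4 libraries. Its log2 fold change between genotypes was -0.18 (SE 0.28, edgeR adjusted p = 0.953), and it was 0.20 without wild type 1. Egr2 was at 141 and 68.8 CPM in wild type and at 98.7, 179, 86.9 and 84.4 CPM in knockout, with the same pair of libraries on top. Its log2 fold change was 0.10 (SE 0.37, edgeR adjusted p = 0.984), -0.32 without wild type 2 and -0.20 without knockout 2. Egr3 ran from 30.9 CPM in knockout 4 to 60.8 CPM in knockout 2.

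The NR4A genes encode orphan nuclear receptors whose activity is set by how much protein is made. All 3 had log2 fold changes above 0, with a median of 0.80. Nr4a2 was at 51.7 and 61.6 CPM in wild type and at 61.9, 148, 164 and 139 CPM in knockout. Knockout 1 was just above wild type 2, while the other knockout libraries were more than 2-fold above it. The means were 56.7 ± 7.03 CPM (SD, n = 2) and 128 ± 45.4 CPM (SD, n = 4), and the fitted log2 difference was 1.18 (SE 0.35, edgeR adjusted p = 0.356, or 0.269 with the replicate block). DESeq2 gave an adjusted p of 0.0216, and edgeR gave 0.0365 without knockout 1 and 0.417 to 0.702 without any other library.

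Nr4a3 was at 78.4 and 113 CPM in wild type and at 109, 163, 197 and 196 CPM in knockout. Knockout 1 fell within the wild-type range and the other knockout libraries above it. Within each day code the knockout libraries lay above their wild-type library. The log2 fold change was 0.80 by genotype alone (SE 0.26, edgeR adjusted p = 0.399) and 0.80 with the replicate block (SE 0.15, edgeR adjusted p = 0.037). The blocked call was lost without wild type 1 (adjusted p = 0.331), wild type 2 (0.329), knockout 3 (0.0734) or knockout 4 (0.106), and it held without knockout 1 (4.76e-04) or knockout 2 (0.0162). Nr4a1, the NR4A gene with the highest level, was at 845 and 636 CPM in wild type and at 736, 1165, 947 and 779 CPM in knockout. Its genotypes overlapped, with a log2 difference of 0.29 (SE 0.21, edgeR adjusted p = 0.836).

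Of the KLF genes, Krüppel-like zinc finger factors, 1 of 4 had a log2 fold change above 0, and 0 passed the test. Klf4, a regulator of epithelial differentiation, was at 545 and 886 CPM in wild type and at 887, 921, 1079 and 1123 CPM in knockout. All knockout libraries lay above both wild-type libraries, but knockout 1 (887.1 CPM) exceeded wild type 2 (886.1 CPM) by less than the spread within either genotype. The log2 fold change was 0.49 (SE 0.21, edgeR adjusted p = 0.577, or 0.0742 with the replicate block and 0.0304 with the block and without knockout 1), and leaving out wild type 1 gave 0.20, leaving out wild type 2 0.88. Klf6 was at 871 and 1011 CPM in wild type and at 824, 611, 754 and 790 CPM in knockout, with no overlap in the lower direction (-0.34, SE 0.15, edgeR adjusted p = 0.598). Klf10, a gene induced by TGF-beta, ran from 103 to 131 CPM and Klf2, known for its response to flow in endothelium, from 11.8 to 16.4 CPM. Klf2 was highest in wild type 1 (16.4 CPM) and lowest in knockout 4 (11.8 CPM). The summed endothelial markers were also highest and lowest there, at 219 and 57.1 CPM. In knockout 1, Klf2 was at 15.3 CPM and these markers at 59.4 CPM. The part of endothelial transcripts in the level of Klf2 was not tested.

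**Figure D2:**
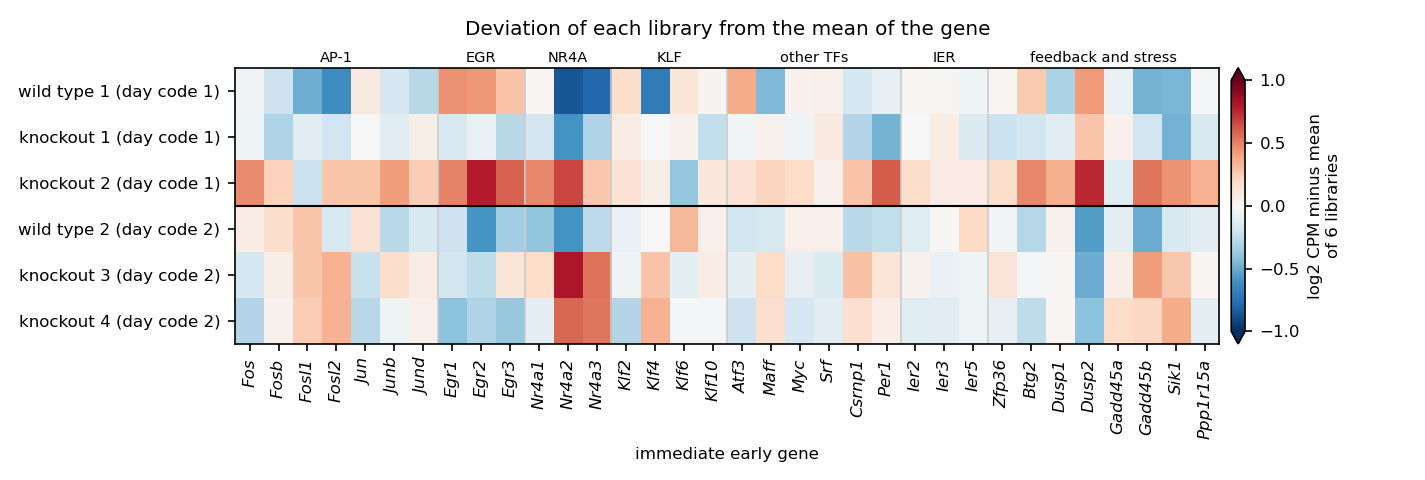
Log2 CPM of each immediate early gene in each library minus the mean of the 6 libraries for that gene, with libraries as rows ordered by day code and colours clipped at 1 in either direction. The row of knockout 2 is above the mean for most genes, and Nr4a2 and Nr4a3 are below the mean in both wild-type libraries and knockout 1.

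Among the other transcription factors, 3 of 6 had log2 fold changes above 0. Maff, a small MAF protein that pairs with other leucine zipper factors, was at 216 and 262 CPM in wild type and at 301, 341, 333 and 328 CPM in knockout. Its genotypes did not overlap, and knockout libraries spread less than wild-type libraries (239 ± 32.7 CPM, SD, n = 2, and 326 ± 17.2 CPM, SD, n = 4). The log2 fold change was 0.45 (SE 0.13, edgeR adjusted p = 0.317, or 0.0728 with the replicate block). Csrnp1, a nuclear protein induced by AXIN1, was at 400 and 375 CPM in wild type and at 369, 551, 555 and 509 CPM in knockout, so that knockout 1 was the lowest library and the others were the highest (0.36, SE 0.18, edgeR adjusted p = 0.664). Atf3, a stress-induced partner of JUN, was at 907 and 617 CPM in wild type and at 687, 773, 657 and 606 CPM in knockout. Its range was set by wild type 1, without which the log2 fold change went from -0.16 (SE 0.18, edgeR adjusted p = 0.926) to 0.16. Per1, a clock gene with known response to cyclic AMP, was at 438 CPM in knockout 2 and 208 to 316 CPM elsewhere. Myc stayed between 519 and 660 CPM and Srf, which encodes serum response factor itself, between 256 and 299 CPM.

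The 3 IER genes, named for their immediate early response, overlapped between genotypes, with log2 fold changes from -0.12 to 0.08. Ier3 was at 544 and 544 CPM in wild type and at 569, 573, 515 and 503 CPM in knockout. Ier2 was at 341 and 310 CPM in wild type and at 338, 380, 347 and 310 CPM in knockout, and its genotypes overlapped (0.08, SE 0.12, edgeR adjusted p = 0.955). Ier5 was at 206 and 246 CPM in wild type and at 193, 227, 208 and 207 CPM in knockout (-0.12, SE 0.12, edgeR adjusted p = 0.921).

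The feedback and stress regulators had 8 of 8 log2 fold changes above 0, beside 47.6% of all tested genes. They ran from 0.01 to 0.75 with a median of 0.12, and 0 passed the test. Within day codes 1 and 2, 6 of 8 and 7 of 8 were above 0. Knockout 2 was the highest library for 7 of the 8, so that the count of 8 rested in part on it. By genotype alone without knockout 2, Dusp2 was at -0.17, Gadd45b at 0.67 and Sik1 at 0.41. For Zfp36, Btg2, Dusp2 and Ppp1r15a the log2 fold change was smaller than its SE. Gadd45b, a stress sensor that binds MAP3K4, was at 115 and 113 CPM in wild type and at 140, 232, 215 and 185 CPM in knockout. Every knockout library lay above both wild-type libraries, with knockout 1 closest to them. The means were 114 ± 1.26 CPM (SD, n = 2) and 193 ± 40.3 CPM (SD, n = 4), and the fitted log2 difference was 0.75 (SE 0.20, edgeR adjusted p = 0.274, DESeq2 adjusted p = 0.0235). The adjusted p was 0.113 by edgeR with the replicate block and 0.323 by limma-voom. By genotype alone, edgeR gave 0.078 to 0.607 with any 1 knockout library left out. Sik1, a kinase of the CREB coactivators that is itself induced by cyclic AMP, was at 1213 and 1497 CPM in wild type and at 1200, 2270, 2003 and 2150 CPM in knockout. As in Nr4a2 and Csrnp1, knockout 1 lay with wild type and the other knockout libraries above (0.49, SE 0.25, edgeR adjusted p = 0.682). Dusp2, a nuclear phosphatase of ERK, was at 10.9 and 5.5 CPM in wild type and at 9.81, 13.7, 5.74 and 6.1 CPM in knockout, so that its level followed the day code.

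The remaining regulators had smaller differences between genotypes over all libraries. Dusp1, which dephosphorylates p38 and JNK, ran from 901 CPM in wild type 1 to 1439 CPM in knockout 2. Its log2 fold change was 0.21 (SE 0.17) over all libraries, 0.46 (SE 0.20) in day code 1 and -0.03 (SE 0.20) in day code 2. Zfp36, which encodes the mRNA decay factor tristetraprolin, ran from 915 to 1201 CPM with a log2 fold change of 0.01. Btg2 (131 to 223 CPM), Ppp1r15a (391 to 553 CPM) and Gadd45a (78.9 to 97.5 CPM) overlapped between genotypes as well. Btg2 and Ppp1r15a were highest in knockout 2, where Gadd45a was lowest.

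The same comparison was made within each day code, where 1 wild-type library stands against 2 knockout libraries and is assumed to vary as the knockout libraries do. In day code 1, 0 of the 34 genes passed (0.23% of all tested genes did) and 7 were higher and 0 lower at an unadjusted p under 0.05, beside 5% and 4.32% of all tested genes. In day code 2, 0 passed (0.0287% of all) and 5 were higher and 1, Jun, lower at an unadjusted p under 0.05, beside 6.28% and 3.42%. The edgeR calls of these fits depended on single libraries: leaving out knockout 1 called 18 of the 34 genes in day code 1 (10.3% of all tested genes) and 14 in day code 2 (7.91%), leaving out knockout 2 called 9 (5.02%) and 13 (7.7%), and leaving out any other library called 0 where the fit could be made (not without the wild-type library of the day code itself). Without knockout 1 or knockout 2, a single knockout library is left in day code 1, and spread is seen between knockout 3 and knockout 4 alone. That pair differed by a median size of 0.09 on the log2 scale over the 34 genes, and knockout 1 and knockout 2 by 0.47. Counts of called genes in the fits without knockout 1 or knockout 2 cannot tell a dependence on single libraries from a smaller estimated spread. The same holds for the difference between day codes below. Signs matched between day codes for 20 of the 34 genes (58.8%, beside 59.5% of all tested genes), 16 higher in both, beside 29%, and 4 lower in both, beside 30.5%. Nr4a2 had log2 fold changes of 1.02 (SE 0.48) and 1.30 (SE 0.49) in day codes 1 and 2, Nr4a3 of 0.80 (SE 0.23) and 0.80 (SE 0.23), and Gadd45b of 0.69 (SE 0.29) and 0.82 (SE 0.29). Klf4 had 0.73 (SE 0.14) and 0.31 (SE 0.13), and Fos had 0.27 (SE 0.22) and -0.31 (SE 0.21). The AP-1 genes were above 0 in 7 of 7 cases in day code 1 and in 3 of 7 in day code 2. Of all tested genes 49.4% and 49.2% were above 0, and of the EGR genes 0 of 3 and 2 of 3. The 7 of 7 rested on knockout 2. Knockout 1 was below wild type 1 for Fos (3321 and 3336 CPM), Fosb (2721 and 2914 CPM) and Jun (1543 and 1647 CPM). Both knockout libraries of day code 1 were above wild type 1 for the other AP-1 genes. The test of the difference between day codes by edgeR passed for 0 of the 34 genes (0% of all tested genes) with 0 at an unadjusted p under 0.05, beside 4.21%, and limma-voom called 0. It called 4 of the 34 when knockout 1 was left out (1.48% of all tested genes) and 4 when knockout 2 was (2.67%).

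**Figure D3:**
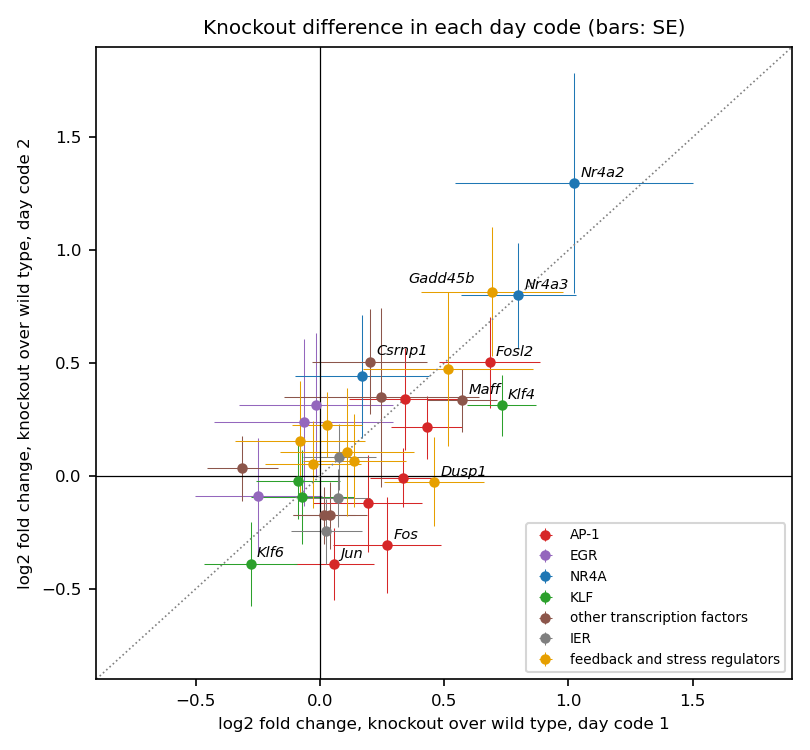
Log2 fold change of knockout over wild type in day code 1 (x axis) and day code 2 (y axis) for the 34 immediate early genes, 1 point per gene coloured by class, with bars of 1 SE and a dotted line where both are equal. Nr4a2, Nr4a3 and Gadd45b lie near that line above 0.6 on both axes. Fos and Jun lie above 0 in day code 1 and below 0 in day code 2, but knockout 1 by itself was below wild type 1 for both.

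The knockout libraries of day code 1 differed by a median size of 0.47 on the log2 scale over the 34 genes, those of day code 2 by 0.09 and the genotypes by 0.14. Over all tested genes these medians were 0.24, 0.15 and 0.16. Knockout 2 was above knockout 1 for 30 of the 34 genes (88.2%, beside 49.1% of all tested genes), with a median log2 difference of 0.47, beside -0.01. In 9 of the 34 genes (26.5%), beside 7.35% of all tested genes, knockout 2 was over 1.5-fold higher, and in 0 it was over 1.5-fold lower. In either direction 17% of all tested genes differed over 1.5-fold. The 9 genes were Egr1, Egr2, Egr3, Nr4a1, Nr4a2, Per1, Btg2, Gadd45b and Sik1. The ratio of knockout 2 to knockout 1 was 2.40 for Nr4a2, 2.11 for Per1, 1.89 for Sik1, 1.83 for Egr3 and 1.42 for Fos. The size of this difference exceeded the size of the genotype difference in 24 genes (70.6%, beside 61.7% of all tested genes). These sizes are unlike measures, as are the medians above. Single libraries are set against fitted means of 2 and 4 libraries, which vary less. In day code 2 the knockout pair was closer: knockout 4 was below knockout 3 for 27 genes (79.4%, beside 49.1%), but with a median log2 difference of -0.06, and 0 genes differed over 1.5-fold (11% of all tested genes did). These are single libraries of 1 genotype and 1 day code each, so that no test was made between them.

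Knockout 2 was the highest of the 6 libraries for 22 of the 34 genes, beside 19.2% of all tested genes, and the lowest for 2, beside 20%. It was highest for 5 of 7 AP-1 genes, 3 of 3 EGR genes, 1 of 3 NR4A genes, 1 of 4 KLF genes, 3 of 6 other transcription factors, 2 of 3 IER genes and 7 of 8 feedback and stress regulators. With CPM by total count these were 5, 2, 1, 0, 4, 1 and 7. The summed level of the 34 genes was 29424 CPM in knockout 2 and 21671 to 24668 CPM in the other libraries. Summed heat shock genes, another group that tissue handling can raise, were at 6415 CPM in knockout 2, 6460 CPM in knockout 3 and 5763 to 6036 CPM in the other libraries. The part of what moves the heat shock genes in these differences was not tested.

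**Figure D4:**
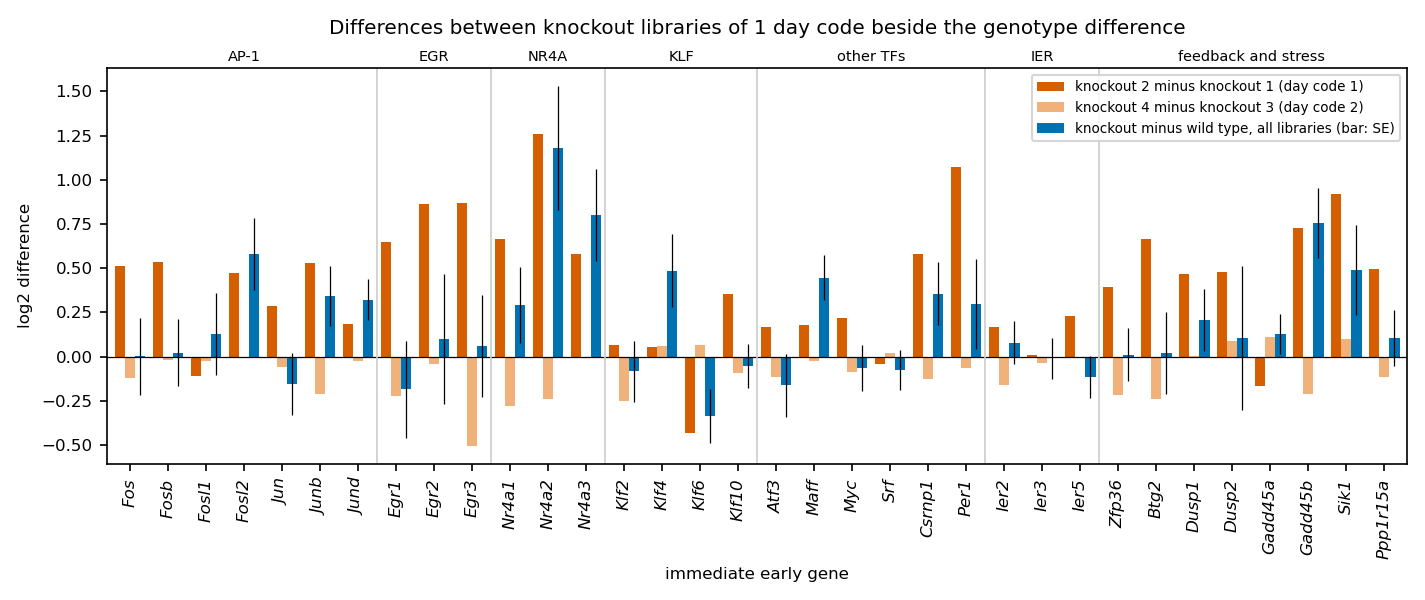
Log2 differences for each immediate early gene: knockout 2 minus knockout 1 (dark orange), knockout 4 minus knockout 3 (light orange) and the fitted knockout minus wild type difference (blue, with a bar of 1 SE). The dark orange bars are above 0 for 30 of the 34 genes and reach 1.26 for Nr4a2, while the light orange bars lie between -0.50 and 0.11.

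Between day codes, with genotype as a term, 2 of the 34 genes were called by edgeR, where 6.43% of all tested genes were. Fosl1 rose in day code 2, as 3.39% of all tested genes did (log2 difference 0.54, SE 0.11, edgeR adjusted p = 0.0181) and Dusp2 fell by 0.98, as 3.04% did (SE 0.17, edgeR adjusted p = 0.0127). The number called was 11 without knockout 1 (13.4% of all tested genes), 6 without knockout 2 (6.58%), 1 without knockout 3 (3.51%) and 0 without knockout 4 or either wild-type library. For Fosl1 the adjusted p was 0.146, 0.145, 0.0543 and 0.0849 without wild type 1, wild type 2, knockout 3 and knockout 4. For Dusp2 it was 0.121, 0.11 and 0.0664 without wild type 1, wild type 2 and knockout 4. The 3 EGR genes were below 0 together, with log2 differences of -0.56 (Egr1, SE 0.16, edgeR adjusted p = 0.0774), -0.81 (Egr2, SE 0.21, 0.0751) and -0.43 (Egr3, SE 0.24, 0.348). Klf4 (0.42, SE 0.12, edgeR adjusted p = 0.0579) and Nr4a3 (0.53, SE 0.14, 0.0525) were above 0 without passing.

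Other genes of the pathway were taken from lists of upstream kinases and factors, further immediate early genes, leucine zipper partners and heat shock genes. By genotype alone 0 of 23, 0 of 30, 0 of 13 and 0 of 15 passed, with 0, 4, 1 and 1 higher and 1, 3, 1 and 0 lower at an unadjusted p under 0.05, where 4.48% of all tested genes were higher and 4.09% lower. Their medians were 0.02, 0.04, 0.03 and -0.01, beside -0.01 over all tested genes. With the replicate block, where 1.12% of all tested genes were called higher, 3 of the 30 further immediate early genes rose, and 6 were higher and 5 lower at an unadjusted p under 0.05, beside 7.37% and 6.27% of all tested genes. Dusp5, another nuclear phosphatase of ERK, was at 138 ± 51.4 CPM in wild type (SD, n = 2) and 266 ± 44.2 CPM in knockout (SD, n = 4). The blocked adjusted p by edgeR was 0.00461 for Dusp5, 0.0217 for the leucine zipper repressor gene Nfil3 and 0.0381 for Crem, which encodes a cyclic AMP-responsive relative of CREB. Dusp6, a cytoplasmic phosphatase of ERK, Arc and Plk2 had log2 differences below 0 with the block, of -0.36, -0.58 and -0.58, and did not pass (edgeR adjusted p = 0.114, 0.137 and 0.187). Hspb1, a small heat shock protein gene, also rose with the block (86.9 ± 25.7 CPM, SD, n = 2, and 145 ± 15.8 CPM, SD, n = 4, edgeR adjusted p = 0.0211). Whether the blocked calls of Dusp5, Nfil3, Crem and Hspb1 hold when a library is left out was not tested. The leucine zipper genes with the smallest p were Nfe2l2, which encodes the antioxidant regulator NRF2 (log2 -0.43, SE 0.15, edgeR adjusted p = 0.427), and Cebpb (log2 0.48, SE 0.19, edgeR adjusted p = 0.52). Of the kinases and factors, Rps6ka1, which encodes the ERK-activated kinase RSK1, had the smallest p, with a log2 difference of -0.30 (SE 0.12, edgeR adjusted p = 0.507).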

How the data were processed

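RNA was sequenced from 6 libraries of sorted basal mammary cells. The authors deposited raw read counts per gene, 1 file per library, made with featureCounts 1.5.1 over exons of the UCSC mm10 annotation in the reverse-stranded setting (option 2), per the file headers. Base calling and alignment used bcl2fastq 2.17 and STAR 2.5.2b, per the submitters' processing notes. The headers list no option to count reads that map to several places or overlap several genes.

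Counts were tested with edgeR 4.0.16 in R 4.3.3 (filterByExpr, which kept 13925 genes and set 9412 aside, TMM, glmQLFit with robust dispersion, glmQLFTest, 2-sided), with Benjamini-Hochberg adjustment over all tested genes and a threshold of 0.05. The model had genotype alone, genotype and day code, or a mean for each genotype and day code, which leaves 2 residual degrees of freedom. SE is the log2 fold change divided by the square root of F. Log2 CPM used a prior count of 2. DESeq2 1.42.0 and limma-voom (limma 3.58.1), other size factors and filters, and leaving out each library were the alternatives. The fits were tested on simulated counts with known changes and no other difference between day codes. Every fit but genotype alone was given a smaller dispersion than was estimated from the data. The share of false calls lay above the threshold in every fit but the difference between day codes. That share was set to 0 where a fit called nothing. The calls given here carry these limits.

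Deviations from the genotype means correlated across genes at 0.251 to 0.414 for a wild-type and a knockout library with equal day codes and at -0.414 to -0.251 otherwise. With 2 wild-type libraries these values mirror each other. The day code of the file names was used as the replicate block; the labels do not tie the 2 experiments to these codes. Wild type 1 and knockout 1 share a title number and a day code, and wild type 2 and knockout 2 share a title number alone (correlation -0.286), so that title numbers do not pair them.

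The genes, lists and tests were chosen with earlier results of these data known. Values in every library are given for Fos, Jun, Egr1, Nr4a1, Klf4 and Atf3, the 2 genes of each class with the smallest p by genotype, and each gene called in any of the 5 comparisons with all libraries or with the replicate block; the values of Junb and Ier3, the ranges of other genes and the values of Dusp6, Arc and Plk2 were added after they were seen. Of each other list, up to 4 called genes or the 1 or 2 with the smallest p are named. The labels do not say that pools shared no litter, and p-values measure the spread between these pools. In the fits with a mean for each genotype and day code, this is the spread within the knockout pairs alone.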

Additional observations from a re-analysis of the deposited data

Results flagged for a closer look

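In 3 of the 34 immediate early genes, 1 of the 4 knockout libraries stood apart from the other 3. Fosl2 was at 866 CPM in knockout 1 and at 1200 to 1256 CPM in the others. Jund was at 414 CPM in knockout 2 and at 361 to 368 CPM in the others, and Egr2 was at 179 CPM in knockout 2 and at 84.4 to 98.7 CPM in the others. Chance flags about 1 in 20 such groups, and the genes share their libraries.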

How the results depend on the processing

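By genotype alone, 11 genes were called in all, 262 by DESeq2 and 217 with the replicate block, with 2 and 1 immediate early genes among them, and 3 to 15 when 1 library was left out, with 0 or 1 immediate early gene. The number of immediate early genes higher at an unadjusted p under 0.05 went from 2 to 11 over the same fits. Leaving out a library moved the log2 fold change of Fos between -0.17 and 0.09, Fosl1 between -0.19 and 0.56, Egr1 between -0.48 and 0.20, Egr2 between -0.32 and 0.72, Atf3 between -0.41 and 0.16, Ier5 between -0.22 and 0.02 and Dusp2 between -0.30 and 0.70. For Fos it was -0.03 by limma-voom and -0.03 with the replicate block. With the block, leaving out a library gave 4 to 940 called genes, 0 to 13 immediate early genes called and 6 to 13 higher at an unadjusted p under 0.05. Without a low-count filter, day code 1 had 253 called genes with 1 immediate early gene, day code 2 had 211, the difference between day codes 7, and the comparison of day code 2 with 1 had 5 immediate early genes. Limma-voom called 2 genes in day code 2. Leaving out a library gave 34 to 1412 called genes in day code 1 (0 to 18 immediate early genes), 4 to 1087 in day code 2 (0 to 14), 3 to 371 for the difference between day codes (0 to 4) and 38 to 1838 for day code 2 against 1 (0 to 11). The block changed no call of an immediate early gene other than Nr4a3. The highest counts within day codes and for their difference came without knockout 1 or knockout 2, where spread is seen between knockout 3 and knockout 4 alone. The causes were not tested. Comparisons within a day code without its own wild-type library, and their difference, could not be fitted. Knockout 2 was the highest library for 20 of the 34 genes with CPM by total count, beside 22. All 34 genes had at least 143 counts in each library.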
